A study of Gallus gallus with 14 samples.

Results

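The 10 genes described here encode parts of the basement membrane and its direct partners: the laminin chains LAMB1 and LAMC1, the collagen IV chains COL4A1, COL4A2 and COL4A4, the nidogens NID1 and NID2, the proteoglycan agrin (AGRN), the metalloproteinase inhibitor TIMP3 and the integrin chain ITGB1. They were taken by name, as every probe set with that single gene symbol in the platform's annotation, which gave 26 of the 38439 probe sets on a chicken genome array. A probe set is the group of short oligonucleotides that reports on 1 transcript. Of the 26, 21 were bright enough to test, and they covered 9 of the 10 genes; the single NID2 probe set was too dim.

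The RNA was from the retinal pigment epithelium (RPE), a pigmented cell layer that supports the photoreceptors, dissected as sheets from chicken embryos. The ages were embryonic day 7, written E7, and likewise E10, E14 and also E18. The labels name no genotype, strain or treatment for any age. The E7 and E18 groups had 4 arrays each, and the E10 and E14 groups had 3 each. Each array was an independent preparation pooled from 20 to 30 eyes, so the spread between arrays is a spread between pools, not between embryos.

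A basement membrane is a thin sheet built from a laminin network and a collagen IV network. Laminins are trimers of an alpha, a beta and a gamma chain, and collagen IV protomers are trimers that come in different chain combinations, among them alpha1-alpha1-alpha2 and alpha3-alpha4-alpha5. Nidogens bind both networks, heparan sulfate proteoglycans such as agrin fill the sheet, and integrins that contain the beta1 chain anchor cells to it. In the eye the basement membrane of the RPE is the inner layer of Bruch's membrane, which lies between the RPE and the choroidal vessels.

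Values below are log2 signals after a common normalisation of the arrays, so a difference of 1 is a doubling. They are compared between ages for 1 probe set, never between genes, because probe sets differ in brightness. Each gene is represented by its brightest probe set, and a change was called where the Benjamini-Hochberg adjusted p of the limma fit over all 23063 tested probe sets was under 0.05. With 1 probe set for each of the 10206 named genes, 48.3% of genes were called between E7 and E18, so a call alone sets no gene apart.

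The arrays also differed in a way that age does not account for. Of the 14 arrays, 9 came with an instrument file, and all 9 gave the same hybridization time. The files named fluidics station 1 for E7 replicate 4 and E10 replicate 1. Station 2 held E10 replicates 2 and 3 and E14 replicates 1 and 2, and station 3 held E14 replicate 3 and E18 replicates 1 and 4. E7 and E18 shared no station in these files, so station and age cannot be told apart between them. E7 replicates 1, 2 and 3 and E18 replicates 2 and 3 had no instrument file. E7 replicates 1 and 2 and E18 replicates 2 and 3 stood apart from the other 10 arrays on the second principal component, with scores of 38.28 to 54.91, and had the lowest actin 3' to 5' signal ratios, 1.18 to 1.297. For each tested gene named at the start, the E7 to E18 change of its brightest probe set is therefore also given without these 4 arrays. A called step of that probe set is given too where it moved by over 1.5 times without them. The EF1a 3' to 5' ratio, another sign of RNA quality, differed with age: it was 1.338 to 1.371 at E7 and 1.483 to 1.613 at E18, without overlap, and its part in the changes between these ages was not tested. Of 12 RPE markers, all had a mean over the 14 arrays above the signal limit, but LRAT, an enzyme of the visual cycle, was below it on every E7 and E10 array. Their summed deposited signal was 198000 to 221000 at E7 and 282000 to 321000 at E18. The markers did not move together: 5 rose, 3 fell and 4 were not called, where 48.3% of all genes were called. The largest rises were of RPE65 and TTR, from log2 means of 9.30 and 8.93 at E7 to 15.02 and 14.87 at E18. MITF, MLANA and TYR fell by 0.65, 0.23 and 0.19. DCT, which was not called, was at 15.35 on every E14 and E18 array. These marker values are for quantile normalisation alone, and other scalings were not run for them.

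All 9 tested genes changed between E7 and E18, when 48.3% of all genes did. Those that fell were LAMB1, LAMC1, COL4A1, COL4A2, AGRN and ITGB1, and those that rose were COL4A4, NID1 and TIMP3. These are 6 of 9 against 26.7% of all genes lower and 3 of 9 against 21.6% higher. The probe sets of the 9 were bright: COL4A1 lay at percentile 74.1 of mean signal and the others at 92.2 to 98.8. The share of all genes called was 35.7% without the filter and 58.3% with the lowest 60% of probe sets left out. The shares of all genes given here are not matched for brightness. The median change of the 9 was -0.79 and that of all genes was -0.05. In all 9 the E7 and E18 arrays did not overlap, which held for 42.3% of all genes. Of the 21 tested probe sets of these genes, 12 fell and 6 rose, where 40.7% of all tested probe sets were called. The counts were also 9 within the 5 arrays without an instrument file (3 at E7, 2 at E18) and without the 4 arrays that stood apart. Among the arrays of shared hybridization time, E7 is represented by replicate 4 alone, whose spread has to be taken from the other ages; the count there was 9 too. With each array centred on its median in place of quantile normalisation, 7 were called, 3 higher and 4 lower, and on the deposited scale 8 were called, 3 higher and 5 lower.

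**Figure D1:**
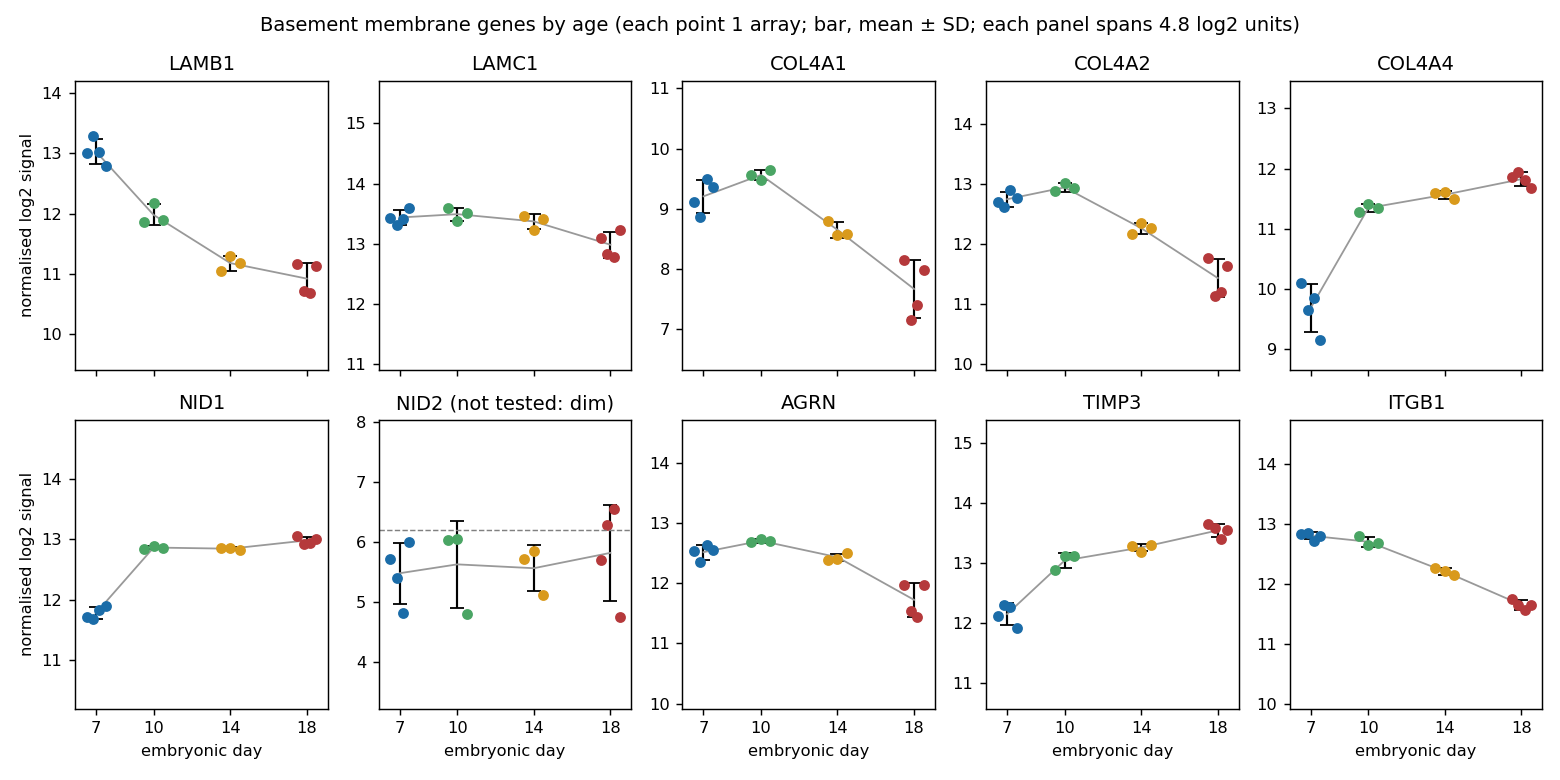
Normalised log2 signal (vertical axis, 4.8 units in every panel) of each gene's brightest probe set by embryonic day. Points are arrays, bars are means ± SD, and the dashed line in the NID2 panel is the signal limit of 6.20; LAMB1, COL4A4, NID1 and TIMP3 had their largest step before E10 on these probe sets, while COL4A1, COL4A2, AGRN and ITGB1 had no called change before it.

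LAMB1, the beta1 chain found in laminins of early basement membranes, had the largest fall of the 9 genes. Its log2 signal was 13.002, 13.29, 13.03 and 12.79 in the E7 arrays and 11.87, 12.18 and 11.89 at E10. It was 11.05, 11.30 and 11.19 at E14 and 11.16, 10.71, 10.69 and 11.13 at E18. The E7 arrays lay above all others, the E10 arrays came next, and the E14 and E18 arrays overlapped.

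The LAMB1 signal fell by 1.05 (SE 0.138, limma adjusted p = 9.16e-05) from E7 to E10 and by 0.80 (SE 0.147, limma adjusted p = 0.00363) from E10 to E14. The difference between E14 and E18 was not called, at -0.26 (SE 0.138, limma adjusted p = 0.219). Over the whole span LAMB1 was 4.31-fold lower at E18, a log2 change of -2.11 (SE 0.128, limma adjusted p = 1.76e-09), and -1.77 without the 4 arrays. A second, dimmer LAMB1 probe set fell by 1.49 over the same span, but with other timing: its steps were -0.35 (limma adjusted p = 0.437), -0.45 (limma adjusted p = 0.407) and -0.69 (limma adjusted p = 0.0609), so the early timing rests on 1 of 2 probe sets. The E10 to E14 step was not called with median centring (-0.50, limma adjusted p = 0.362).

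LAMC1, the gamma1 chain shared by most laminins, showed a much smaller difference. The signal was 13.44, 13.30, 13.42 and 13.59 at E7, and 13.59, 13.38 and 13.50 at E10. It was 13.47, 13.23 and 13.42 at E14 and 13.10, 12.82, 12.79 and 13.23 at E18. Arrays of the first 3 ages overlapped, and the E18 arrays lay below those of E7.

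LAMC1 was 1.37-fold lower at E18 than at E7, a log2 change of -0.45 (SE 0.096, limma adjusted p = 0.00123), and -0.34 without the 4 arrays. Its other 2 probe sets gave -0.16 (limma adjusted p = 0.198) and 0.00 (limma adjusted p = 0.996), so the call rests on 1 of 3 probe sets. It also did not hold on the deposited scale (-0.20, limma adjusted p = 0.098), and with median centring the value was 0.01. The E14 to E18 step of -0.39 (limma adjusted p = 0.0149) was not called without the 4 arrays (-0.21), nor without E14 replicate 1 (-0.34) or E14 replicate 3 (-0.365).

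The distance between the 2 laminin chains was measured within each array as the LAMC1 minus the LAMB1 log2 signal. It was 0.43, 0.01, 0.39 and 0.80 at E7 and 1.94, 2.12, 2.10 and 2.11 at E18, so the 2 ages did not overlap. The mean changed by 1.66 (two-sided exact permutation p = 0.0286, the smallest that 4 against 4 arrays allow, and 0.0477 after Benjamini-Hochberg adjustment over 5 pairs). LAMB1 was at least 12.786 at E7 and at most 11.155 at E18, while LAMC1 stayed within 12.786 to 13.589 at these ages. This p was therefore fixed at its lowest value by the LAMB1 fall and adds nothing to it. The adjustment also counts COL4A4 minus COL4A1 and TIMP3 minus ITGB1, whose p was fixed by the opposite changes of their genes.

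The collagen IV chains split by direction. COL4A1 and COL4A2, which share a protomer and lie next to each other in the chicken RefSeq table (GRCg7b), fell, and COL4A4, a chain of the alpha3-alpha4-alpha5 protomer, rose. COL4A1 signal was 9.11, 8.87, 9.49 and 9.36 at E7, and 9.55, 9.48 and 9.65 at E10. It was 8.80, 8.57 and 8.58 at E14 and 8.15, 7.14, 7.40 and 7.98 at E18. E7 and E10 arrays overlapped, all E14 arrays were below all of E7 and E10, and all E18 arrays were below E14.

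COL4A1 was 2.91-fold lower at E18 than at E7, a log2 change of -1.54 (SE 0.203, limma adjusted p = 1.28e-05), and -1.36 without the 4 arrays. The difference from E7 to E10 was not called (0.35, SE 0.219, limma adjusted p = 0.364). The step from E10 to E14 was -0.91 (SE 0.234, limma adjusted p = 0.0302) and that from E14 to E18 was -0.98 (SE 0.219, limma adjusted p = 0.00442). The E10 to E14 call was lost without any 1 of the 6 arrays of those ages (-0.99 to -0.87), while within the arrays of shared hybridization time its adjusted p in limma was 2.86e-04 at the same size. The E14 to E18 step was -0.59 without the 4 arrays. The other 2 COL4A1 probe sets had means below the signal limit.

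COL4A2 followed the same course on a brighter probe set. Its signal was 12.71, 12.61, 12.90 and 12.76 at E7, and 12.88, 13.02 and 12.93 at E10. It was 12.17, 12.35 and 12.27 at E14 and 11.76, 11.14, 11.20 and 11.64 at E18. As for COL4A1, the E7 and E10 arrays overlapped and each later age lay below the ages before it.

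COL4A2 was 2.48-fold lower at E18 than at E7, a log2 change of -1.31 (SE 0.118, limma adjusted p = 1.74e-07), and -1.13 without the 4 arrays. It fell by 0.68 (SE 0.136, limma adjusted p = 0.00635) from E10 to E14 and by 0.83 (SE 0.127, limma adjusted p = 1.98e-04) from E14 to E18. The E14 to E18 step was -0.565 without the 4 arrays. All 5 tested COL4A2 probe sets fell over the whole span, by 1.31 to 1.81. Neither the COL4A1 nor the COL4A2 step from E10 to E14 was called with median centring (-0.75 and -0.36, with limma adjusted p of 0.149 and 0.495).

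The COL4A2 minus COL4A1 difference within arrays was 3.40 to 3.74 at E7 and 3.61 to 4.00 at E18. Its mean changed by 0.23 (two-sided exact permutation p = 0.114, 0.114 adjusted over the 5 pairs), and its sign turned with the second brightest COL4A2 probe set (-0.27). On the deposited scale the change was 0.58 with the smallest p the design allows (exact permutation p = 0.0286), so whether the 2 chains differ in course depends on the scaling and the probe set.

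Markers of connective tissue cells were measured beside these 2 genes. Of 14 stromal fibroblast markers, 8 had a mean over the 14 arrays below the signal limit, DCN, LUM, POSTN and PDGFRA among them. Some passed it on single arrays. POSTN was at 4.63 to 5.97 at E7 and 7.61 to 7.97 at E14. In E18 replicates 1 and 4, POSTN was at 7.33 and 7.20, DCN at 7.23 and 7.88, and LUM at 7.19 and 7.16. All 3 genes were lower in E18 replicates 2 and 3. TWIST1 and OGN were below the limit on every array. The summed deposited signal of the 14 was 4710 to 4960 at E7, 8420 to 9290 at E10, 7340 to 8040 at E14 and 2600 to 4440 at E18. COL1A2 is a fibrillar collagen chain on that list. The log2 means of its brightest probe set were 10.46 and 11.40 for E7 and E10, then 10.40 and 8.46 at the later ages. Its rise of 0.94 from E7 to E10 was called (limma adjusted p = 0.00396), where COL4A1 and COL4A2 had no call. The dimmer COL1A2 probe sets that were tested gave 0.57, -0.20, 0.16 and -0.04 for this step. None of these was called (limma adjusted p of 0.31, 0.876, 0.789 and 0.959). For COL1A2, the contrast with COL4A1 and COL4A2 therefore rests on its brightest probe set alone. From E7 to E18 that probe set fell by 2.00 (limma adjusted p = 1.87e-07). The dimmer tested ones gave -2.15, -2.44, -2.07 and -0.45 over that span (limma adjusted p of 2.16e-05, 8.56e-04, 6.15e-06 and 0.24). COL5A1, a further fibrillar collagen chain of the list, rose from E7 to E10 on each tested probe set. Its steps were 1.15 (limma adjusted p = 0.00134) and 1.23 (limma adjusted p = 1.89e-04). Of the 6 tested markers, 2 rose in this interval and 4 were not called, where 8.78% of all genes were higher. From E14 to E18 the COL5A1 probe sets fell by 1.91 (limma adjusted p = 6.57e-06) and 1.52 (limma adjusted p = 1.28e-05). Then 2 of the 6 tested markers fell and 4 were not called, where 15.1% of all genes were lower. From E7 to E18 COL5A1 changed by -0.95 (limma adjusted p = 7.58e-04) and -0.545 (limma adjusted p = 0.0132). COL3A1, another fibrillar collagen chain of the list, rose by 0.77 from E7 to E18 (limma adjusted p = 6.61e-05) on its brightest probe set. Its other tested probe sets gave 0.34, -0.55 and 0.26 and were not called (limma adjusted p of 0.176, 0.39 and 0.678). Of the 6 tested markers, 2 rose and 2 fell over that span, where 21.6% of all genes were higher and 26.7% lower. The part of these cells in the collagen IV values was not tested. In RNA from whole sheets, fewer cells of a type and less RNA per cell cannot be told apart. Of 12 endothelium markers, 6 had means below the limit, CDH5, KDR and TEK included. The summed signal of the 12 was 1030 to 1490 at E7 and 1290 to 1870 at E18. Of the 6 tested, ERG rose by 0.94 from E7 to E18 (limma adjusted p = 0.0033) and 5 were not called, where 21.6% of all genes were higher. From E10 to E14 PECAM1 fell by 0.74 (limma adjusted p = 0.0271) and 5 were not called, where 2.79% of all genes were lower. The part of endothelial cells was not tested either.

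COL4A4 rose 4.40-fold. Its signal was 10.10, 9.65, 9.85 and 9.15 at E7 and 11.28, 11.41 and 11.35 at E10. It was 11.59, 11.62 and 11.50 at E14 and 11.87, 11.95, 11.81 and 11.67 at E18. The E7 arrays lay below all others by more than 1 unit, and each later age lay above the one before without overlap.

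The E7 to E10 step of COL4A4 was 1.66 (SE 0.157, limma adjusted p = 4.27e-06). The next steps, 0.22 (SE 0.168, limma adjusted p = 0.556) and 0.26 (SE 0.157, limma adjusted p = 0.29), were not called. From E7 to E18 the log2 change was 2.14 (SE 0.145, limma adjusted p = 6.66e-09), and 2.27 without the 4 arrays. COL4A4 had 1 probe set, of the type whose oligonucleotides can match more than 1 transcript, so no second probe set checks it.

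Within arrays, COL4A4 minus COL4A1 was 0.98, 0.78, 0.36 and -0.21 at E7 and 3.71, 4.805, 4.42 and 3.69 at E18. The E10 values, 1.70 to 1.93, and the E14 values, 2.79 to 3.05, lay between. The mean difference changed by 3.68 from E7 to E18 (two-sided exact permutation p = 0.0286, 0.0477 adjusted over the 5 pairs), which was the largest change among the 5 pairs. COL4A4 rose and COL4A1 fell without overlap in these arrays, so this p was fixed at its lowest value and adds nothing to those changes.

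**Figure D2:**
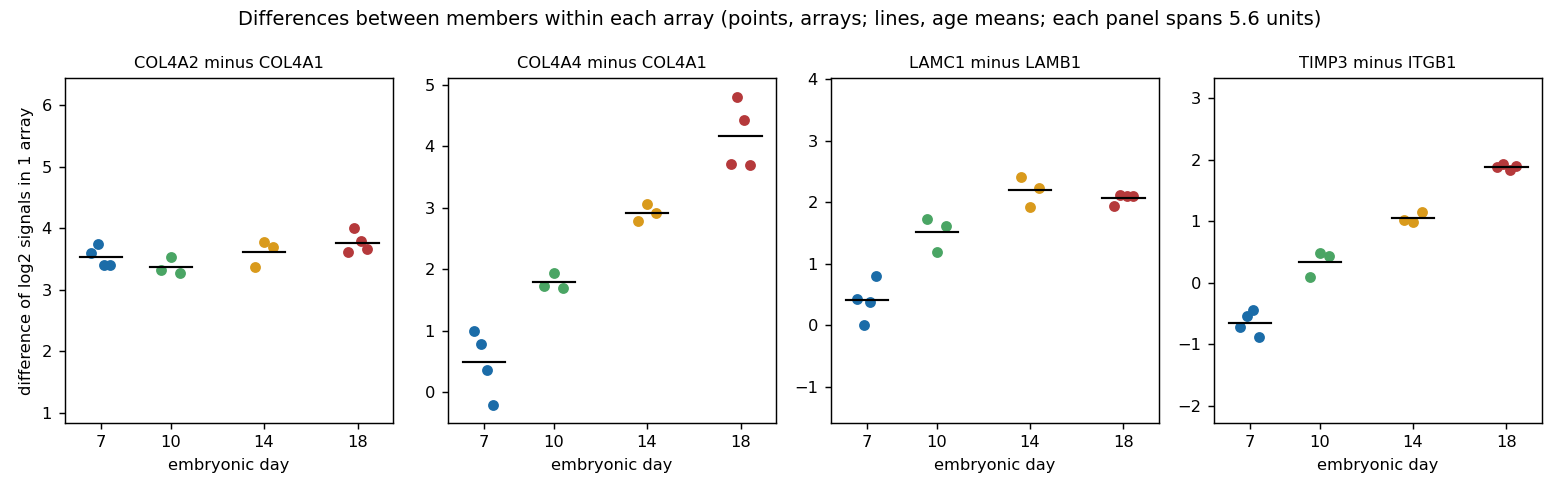
Difference between the log2 signals of 2 genes in the same array, by embryonic day (points, arrays; lines, age means; each panel spans 5.6 units). COL4A4 minus COL4A1, LAMC1 minus LAMB1 and TIMP3 minus ITGB1 did not overlap between E7 and E18, and COL4A2 minus COL4A1 did. The zero of each axis depends on probe brightness, so only changes along an axis are read.

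The other 3 collagen IV chains were also measured, and all 6 chains changed between E7 and E18, 2 up and 4 down. Of all genes, 48.3% were called over that span, 21.6% higher and 26.7% lower. COL4A3, whose gene neighbours COL4A4, had signals of 7.34, 7.55, 7.37 and 7.10 at E7 and 8.52, 8.997, 9.25 and 8.59 at E18. COL4A3 rose by 1.5 (SE 0.179, limma adjusted p = 4.28e-06). The E7 to E10 step was 0.74 (limma adjusted p = 0.0184) and the E14 to E18 step was 0.62 (limma adjusted p = 0.0335). E18 replicates 2 and 3, which stood apart, had the highest signals. The E14 arrays were at 8.12 to 8.30, so the late step was smaller on E18 replicates 1 and 4, at 8.52 and 8.59. That step was not fitted without the arrays that stood apart. This probe set, like that of COL4A4, is of the type that can match more than 1 transcript. A second, dimmer COL4A3 probe set gave 0.35 and was not called (limma adjusted p = 0.471).

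COL4A5, the chain that joins COL4A3 and COL4A4 in a protomer, went the other way from them. Its signals were 11.84, 11.62, 11.94 and 11.73 at E7 and 10.89, 10.59, 10.48 and 10.99 at E18, a change of -1.04 (SE 0.105, limma adjusted p = 6.22e-07). COL4A6, which pairs with COL4A5 in another protomer, had signals of 11.79, 11.77, 11.31 and 11.47 at E7 and 9.82, 10.32, 10.52 and 10.01 at E18, a change of -1.42 (SE 0.144, limma adjusted p = 7.13e-07). For all 3 of these chains the E7 and E18 arrays did not overlap, which held for 42.3% of all genes.

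**Figure D3:**
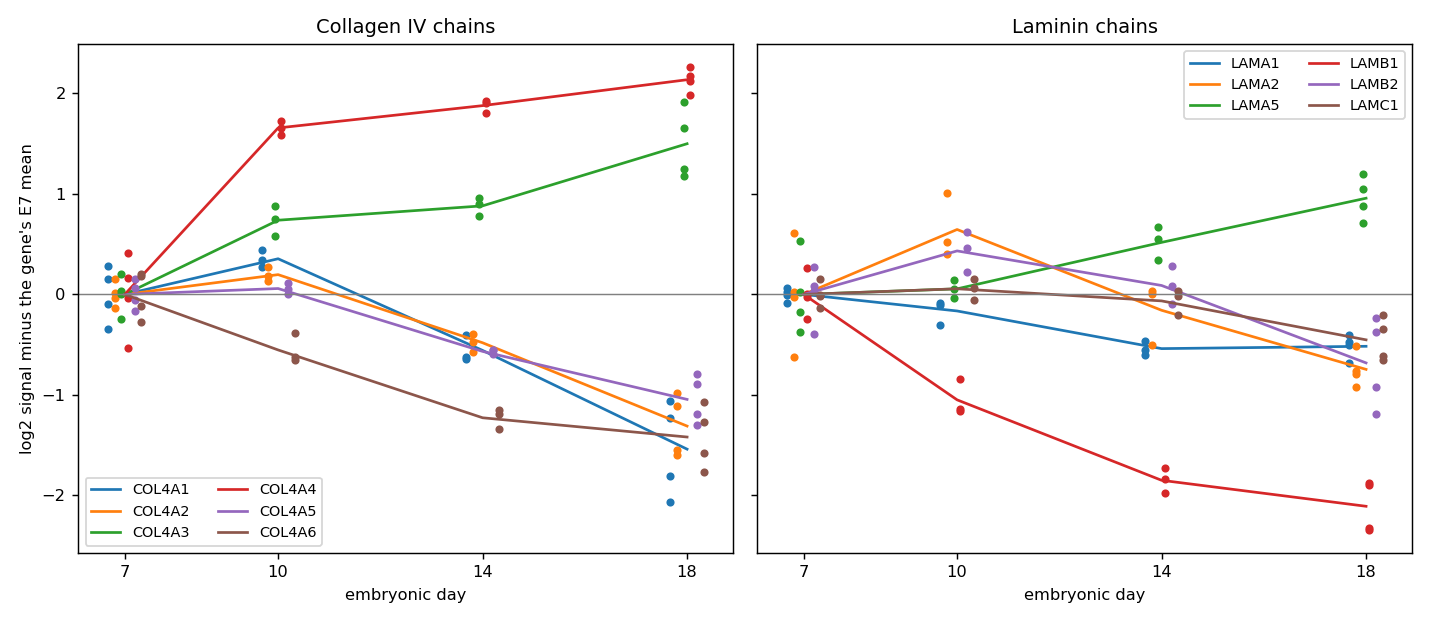
Log2 signal of the 6 collagen IV chains and of 6 laminin chains, each minus its own E7 mean, by embryonic day (points, arrays, offset sideways for clarity; lines, age means). COL4A3 and COL4A4 lie above 0 from E10 on and the other collagen IV chains end between -1.04 and -1.54; among the laminin chains shown LAMB1 lies lowest and LAMA5 highest at E18.

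Of 8 tested laminin chains, 2 rose and 5 fell between E7 and E18, where 21.6% of all genes were higher and 26.7% lower. LAMA5, the alpha5 chain of many mature epithelial and vascular basement membranes, had signals of 9.71, 9.51, 10.41 and 9.91 at E7 and 11.08, 10.76, 10.59 and 10.93 at E18, a rise of 0.96 (SE 0.162, limma adjusted p = 1.58e-04). LAMA1, the alpha chain of the first embryonic laminin, fell by 0.52 (SE 0.082, limma adjusted p = 8.83e-05), a call that was lost with median centring (-0.27). Another LAMA1 probe set gave -1.115 (limma adjusted p = 0.00419). The remaining tested ones gave -0.395, -0.505 and -0.53 and were not called (limma adjusted p of 0.234, 0.0931 and 0.306). LAMB3, a chain of the laminin under stratified epithelia, rose by 1.18 (limma adjusted p = 0.0052), and the call was lost on the deposited scale (0.89, limma adjusted p = 0.0526). LAMB2, the beta chain that replaces LAMB1 in several mature basement membranes, fell by 0.68 (limma adjusted p = 0.00902), a call that was lost with median centring (-0.53, limma adjusted p = 0.127). A second LAMB2 probe set gave -0.42 and was not called (limma adjusted p = 0.189). LAMA2, the alpha chain of muscle laminin, fell by 0.75 (limma adjusted p = 0.0162), and the call was lost without E7 replicate 4 (-0.54). The other tested LAMA2 probe sets gave -0.88 and -0.05, neither called (limma adjusted p of 0.166 and 0.939). LAMA3 was not called between E7 and E18 but rose by 1.33 (limma adjusted p = 0.0133) from E7 to E10.

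NID1, which links laminin to collagen IV, rose on all 4 of its probe sets. The signal of the brightest was 11.72, 11.68, 11.83 and 11.89 at E7 and 12.85, 12.89 and 12.86 at E10. It was 12.85, 12.86 and 12.82 at E14 and 13.06, 12.93, 12.94 and 13.02 at E18. The E7 arrays lay below all others, and the E10 and E14 arrays overlapped.

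On that probe set the E7 to E10 step of NID1 was 1.09 (SE 0.065, limma adjusted p = 2.69e-08), and the later steps of -0.02 (limma adjusted p = 0.933) and 0.14 (limma adjusted p = 0.158) were not called. Over the whole span NID1 was 2.31-fold higher, a log2 change of 1.21 (SE 0.060, limma adjusted p = 1.72e-10), and 1.17 without the 4 arrays. The 4 probe sets rose by 0.82 to 1.36, but the called steps differed among them. In the 3 dimmer ones the E7 to E10 steps of 0.69, 0.70 and 0.48 were not called (limma adjusted p of 0.154, 0.0836 and 0.335), and the E14 to E18 steps were 0.815, 0.69 and 0.50 (limma adjusted p of 0.0642, 0.0671 and 0.251). A called early step of NID1 therefore rests on 1 of 4 probe sets. In the dimmer ones E18 replicates 2 and 3 were above replicates 1 and 4, and in the brightest they were below them. E7 replicates 1 and 2 were also above replicates 3 and 4 in the dimmer ones. These are the 4 arrays that stood apart, and the dimmer probe sets were not fitted without them. The brightest of the dimmer ones was at 7.96 and 8.095 in E7 replicates 3 and 4 and at 9.08 to 9.27 at E10. It was at 8.94 to 9.16 at E14 and at 9.46 and 9.24 in E18 replicates 1 and 4.

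NID2, the other nidogen, gave signals of 5.72, 5.40, 4.82 and 5.995 at E7, 6.04, 6.05 and 4.802 at E10, 5.72, 5.85 and 5.13 at E14, and 5.70, 6.28, 6.55 and 4.76 at E18. All but 2 of these were under the signal limit of 6.20, and all ages overlapped, so no level or course can be given. The NID2 minus NID1 difference changed by -0.87 (two-sided exact permutation p = 0.114), a value that holds the NID1 rise beside a dim probe set.

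AGRN, the heparan sulfate proteoglycan agrin, fell late. Its signal was 12.53, 12.35, 12.64 and 12.55 at E7, and 12.68, 12.74 and 12.70 at E10. It was 12.40, 12.41 and 12.50 at E14 and 11.97, 11.54, 11.43 and 11.97 at E18. The E7 and E14 arrays overlapped, and the E18 arrays lay below all others.

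AGRN fell by 0.71 (SE 0.117, limma adjusted p = 3.77e-04) from E14 to E18, or by 0.47 without the 4 arrays, and its earlier steps of 0.19 (limma adjusted p = 0.366) and -0.27 (limma adjusted p = 0.26) were not called. AGRN was 1.73-fold lower at E18 than at E7, a log2 change of -0.79 (SE 0.108, limma adjusted p = 1.85e-05), and -0.63 without the 4 arrays. The E18 against E7 call was lost with median centring (-0.42, limma adjusted p = 0.118). A dim second AGRN probe set gave -0.10 (limma adjusted p = 0.891).

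TIMP3, an inhibitor of metalloproteinases that stays bound to the matrix and is mutated in the human Sorsby fundus dystrophy, rose. Its signal was 12.11, 12.30, 12.27 and 11.91 at E7 and 12.89, 13.12 and 13.11 at E10. It was 13.28, 13.19 and 13.30 at E14 and 13.65, 13.57, 13.40 and 13.54 at E18. Every age lay above the one before without overlap.

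TIMP3 rose by 0.89 (SE 0.093, limma adjusted p = 1.1e-05) from E7 to E10, and the E10 to E14 difference of 0.22 was not called (limma adjusted p = 0.253). The E14 to E18 step was 0.28 (SE 0.093, limma adjusted p = 0.0416). That late call was lost without E10 replicate 3, any 1 E14 array, or E18 replicate 1, 2 or 4, at 0.25 to 0.31. Over the whole span TIMP3 was 2.62-fold higher, a log2 change of 1.39 (SE 0.086, limma adjusted p = 2.16e-09), and 1.503 without the 4 arrays. TIMP3 had 1 probe set on the array.

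ITGB1, the integrin beta1 chain of most laminin and collagen receptors, fell in called steps after E10. Its signal was 12.83, 12.85, 12.72 and 12.80 at E7, and 12.79, 12.64 and 12.67 at E10. It was 12.26, 12.21 and 12.16 at E14 and 11.76, 11.64, 11.56 and 11.65 at E18. E7 and E10 overlapped and the later ages did not overlap with any other.

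ITGB1 fell by 0.495 (SE 0.073, limma adjusted p = 6.01e-04) from E10 to E14 and by 0.55 (SE 0.068, limma adjusted p = 2.38e-05) from E14 to E18. From E7 to E18 it was 2.22-fold lower, a log2 change of -1.15 (SE 0.063, limma adjusted p = 5.25e-10), and -1.05 without the 4 arrays. A second ITGB1 probe set fell by 1.28. Its E7 to E10 step of -0.24 was not called (limma adjusted p = 0.0573), but its arrays of these ages did not overlap, which held for 28.9% of all genes. Its later steps were -0.45 (limma adjusted p = 0.00352) and -0.59 (limma adjusted p = 4.81e-05). The E10 to E14 step of the brightest ITGB1 probe set was not called with median centring (-0.17, limma adjusted p = 0.722).

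TIMP3 minus ITGB1, an inhibitor of matrix turnover against a matrix receptor, was -0.72, -0.55, -0.45 and -0.89 at E7 and 1.89, 1.93, 1.84 and 1.89 at E18. The change of 2.54 had a two-sided exact permutation p of 0.0286 (0.0477 adjusted over the 5 pairs). This p too was fixed in advance, since TIMP3 rose and ITGB1 fell without overlap between the same arrays. The E18 values of this difference were close together, with an SD of 0.038.

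Markers of blood and neural retina cells were measured beside COL4A4, NID1 and TIMP3. Of 10 leukocyte markers, 4 had means below the limit (PTPRC, SPI1, CD3E and LY86). The summed deposited signal of the 10 was 4010 to 5010 at E7, 6440 to 8840 at E10 and 8850 to 10300 at E18. Of the 6 tested, 3 rose from E7 to E18 and 3 were not called, where 21.6% of all genes were higher. The brightest, CSF1R, had mean log2 signals of 11.88 and 12.92 at those ages. The sum of 6 erythrocyte markers varied between arrays of 1 age, from 1370 to 50900 at E18.

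Of 10 neural retina markers, 5 had means below the limit (GNAT1, PDE6H, ISL1, SLC1A3 and NEFM). The summed signal of the 10 was 7740 to 11100 at E7 and 9100 to 15300 at E18. Of the 5 tested, 2 rose and 1 fell between E7 and E18, where 48.3% of all genes were called. The photoreceptor genes GNAT2 and PDE6G rose by 3.09 (limma adjusted p = 1.14e-05) and 2.57 (limma adjusted p = 1.27e-06). The neuronal gene ELAVL4 fell by 3.11 (limma adjusted p = 2.02e-09). The part of these cells in the members' changes was not tested.

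The genes called differed from interval to interval, and no test of that difference was made. From E7 to E10, 3 rose (COL4A4, NID1, TIMP3) and 1 fell (LAMB1), when 16.9% of all genes were called, 8.78% higher and 8.08% lower. From E10 to E14, 4 fell (LAMB1, COL4A1, COL4A2, ITGB1) and none rose, when 7.45% of all genes were called, 2.79% lower and 4.65% higher. From E14 to E18, 5 fell (LAMC1, COL4A1, COL4A2, AGRN, ITGB1) and 1 rose (TIMP3), when 24.9% of all genes were called, 15.1% lower and 9.79% higher. The moderated F test over the 4 ages called all 9, and 50.9% of all genes. The arrays of neighbouring ages did not overlap in 5 of the 9 genes from E7 to E10, 7 from E10 to E14 and 7 from E14 to E18, where the shares of all genes were 28.9%, 37.3% and 38.4%. Intervals that meet at an age share its arrays, so neighbouring steps are not independent.

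**Figure D4:**
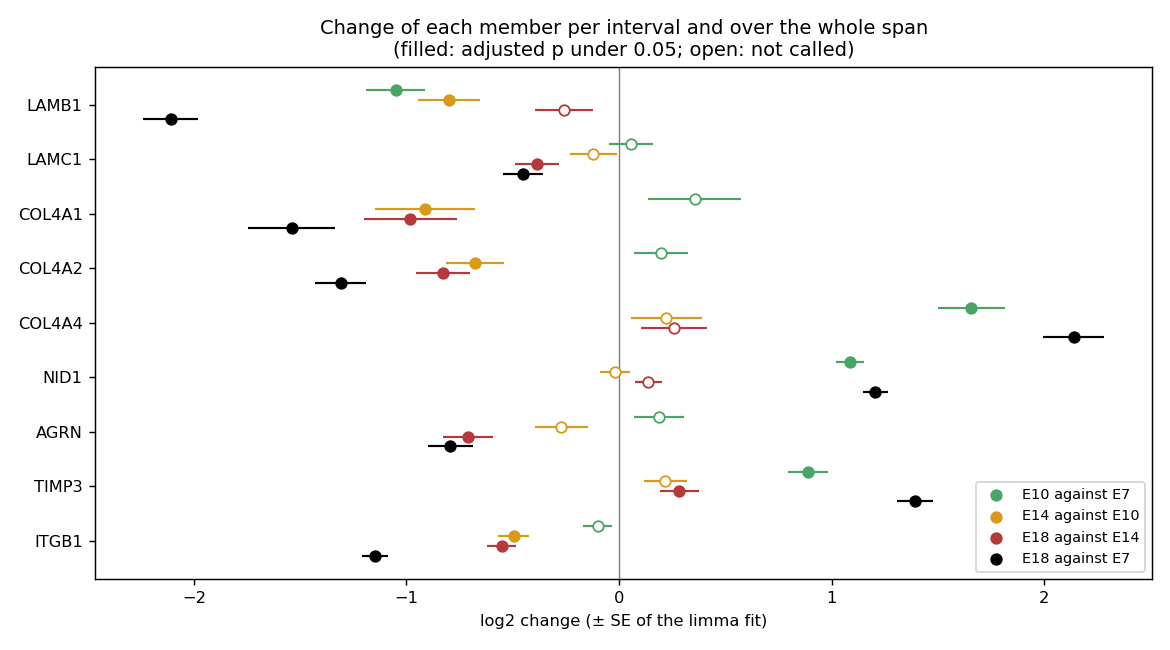
Log2 change of the 9 tested genes in each interval and over the whole span (points, limma estimates; bars, SE; filled points, adjusted p under 0.05). COL4A4, NID1 and TIMP3 have their largest step from E7 to E10, and COL4A1, COL4A2, AGRN and ITGB1 have theirs from E14 to E18. Without the 4 arrays that stood apart, the E14 to E18 steps of COL4A1 and COL4A2 were -0.59 and -0.565. Those were smaller than their E10 to E14 steps of -0.91 and -0.68.

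Within E18, replicates 1 and 4 were both above replicates 2 and 3 in 7 of the 9 genes and both below in 0. The shares over all genes were 36.7% and 26.9%. COL4A1 showed it most, with 8.15 and 7.98 against 7.14 and 7.40. Replicates 2 and 3 are the E18 arrays without an instrument file. The same split was present in the erythrocyte gene HBA1, with 14.88 and 14.83 against 9.84 and 9.67, and in COL1A2, with 8.76 and 8.94 against 7.92 and 8.21. The part of either in the E18 means was not tested.

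The wider pathway was measured through 6 lists of genes by role, 81 genes in all, of which 74 had a probe set and 62 were tested. Between E7 and E18, 11 rose and 33 fell, where 21.6% of all genes were higher and 26.7% lower, and the median change was -0.47 against -0.05 for all genes. With median centring 12 rose and 20 fell. From E7 to E10, 9 rose and 6 fell, where 16.9% of all genes were called. From E10 to E14, 1 rose and 11 fell, where 7.45% were called, and from E14 to E18, 7 rose and 23 fell, where 24.9% were called. The E10 to E14 count of 12 ranged widely, from 2 with median centring to 25 when only those 2 ages were fitted, and was 7 without E10 replicate 3 or without E14 replicate 3. The lists hold the 9 genes described above.

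Among 11 linkers and proteoglycans, 1 rose (NID1) and 8 fell, where 21.6% of all genes were higher and 26.7% lower. FBLN1, fibulin 1, a glycoprotein that binds laminin and nidogen, fell most, from 13.75, 13.77, 13.83 and 13.81 at E7 to 10.63, 10.63, 10.61 and 10.74 at E18, a change of -3.14 (SE 0.056, limma adjusted p = 1.32e-15). EFEMP1, a fibulin mutated in an inherited human macular drusen disease, fell by 0.91 (limma adjusted p = 3.04e-08), and COL18A1, the core of a heparan sulfate proteoglycan and source of endostatin, fell by 0.66 (limma adjusted p = 4.24e-05). Both calls were lost with median centring (-0.485 and -0.20). SPARC, a collagen-binding matricellular protein, first rose by 1.04 (limma adjusted p = 9.6e-04) from E7 to E10. Its largest step was from E14 to E18, at -1.43 (limma adjusted p = 2.67e-05).

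Among 15 matrix receptors, 3 rose and 7 fell, where 26.7% of all genes were lower. The share that rose was near the 21.6% of all genes. ITGA7, a laminin-binding integrin alpha chain, rose by 1.81 (limma adjusted p = 1.95e-05) from 7.40, 7.57, 7.54 and 7.86 at E7 to 9.65, 9.23, 9.14 and 9.58 at E18. ITGAV, the alpha chain of the integrin that RPE uses to bind shed photoreceptor tips, rose by 1.09 (limma adjusted p = 2.06e-04), and the cell surface proteoglycan SDC2 rose by 0.24 (limma adjusted p = 0.00146), or by 0.52 on the deposited scale and 0.735 with median centring. SDC1, another syndecan, fell by 2.95 (SE 0.222, limma adjusted p = 2.1e-08), of which 1.95 fell between E14 and E18. The collagen receptors DDR2 and DDR1 fell by 2.15 (limma adjusted p = 5.22e-06) and 0.58 (limma adjusted p = 3.12e-05), the second of which was not called with median centring (-0.40).

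Among 7 proteases and inhibitors, 1 rose (TIMP3) and 4 fell, where 21.6% of all genes were higher and 26.7% lower. RECK, a membrane-anchored inhibitor of metalloproteinases, fell by 1.13 (limma adjusted p = 5.59e-08), with 2 probe sets at -1.13 and -1.10. TIMP2, a soluble inhibitor, fell by 0.94 (limma adjusted p = 1.12e-04) from E14 to E18. The membrane-type metalloproteinases MMP15 and MMP16 fell by 0.50 (limma adjusted p = 0.00135) and 1.37 (limma adjusted p = 0.00687). MMP15 was not called with median centring (-0.31, limma adjusted p = 0.293) and MMP16 was not called within the 5 arrays without an instrument file (-1.33, limma adjusted p = 0.101).

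Among 15 genes of collagen folding and crosslinking, 2 rose, 5 fell and 8 were not called, so the share called was near the 48.3% of all genes. PLOD2, a lysyl hydroxylase, fell by 2.33 (SE 0.236, limma adjusted p = 6.77e-07), and LOXL1, a lysyl oxidase of elastic fibres, fell by 1.36 (limma adjusted p = 4.02e-05), or by 0.79 without the 4 arrays. P4HB, a subunit of prolyl 4-hydroxylase, fell by 0.475 (limma adjusted p = 8.38e-05), but that change was 0.00045 with median centring. P4HA2, a catalytic subunit of that enzyme, rose by 0.78 (limma adjusted p = 0.00502), and LOXL2, which crosslinks collagen IV, rose by 0.62 (limma adjusted p = 0.0172). The LOXL2 call was lost without E7 replicate 3 (0.51) or E18 replicate 4 (0.48), and the value was 1.13 without the 4 arrays. LOX, another lysyl oxidase, rose by 1.73 (limma adjusted p = 5.35e-04) from E7 to E10 and was not called between E7 and E18.

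**Figure D5:**
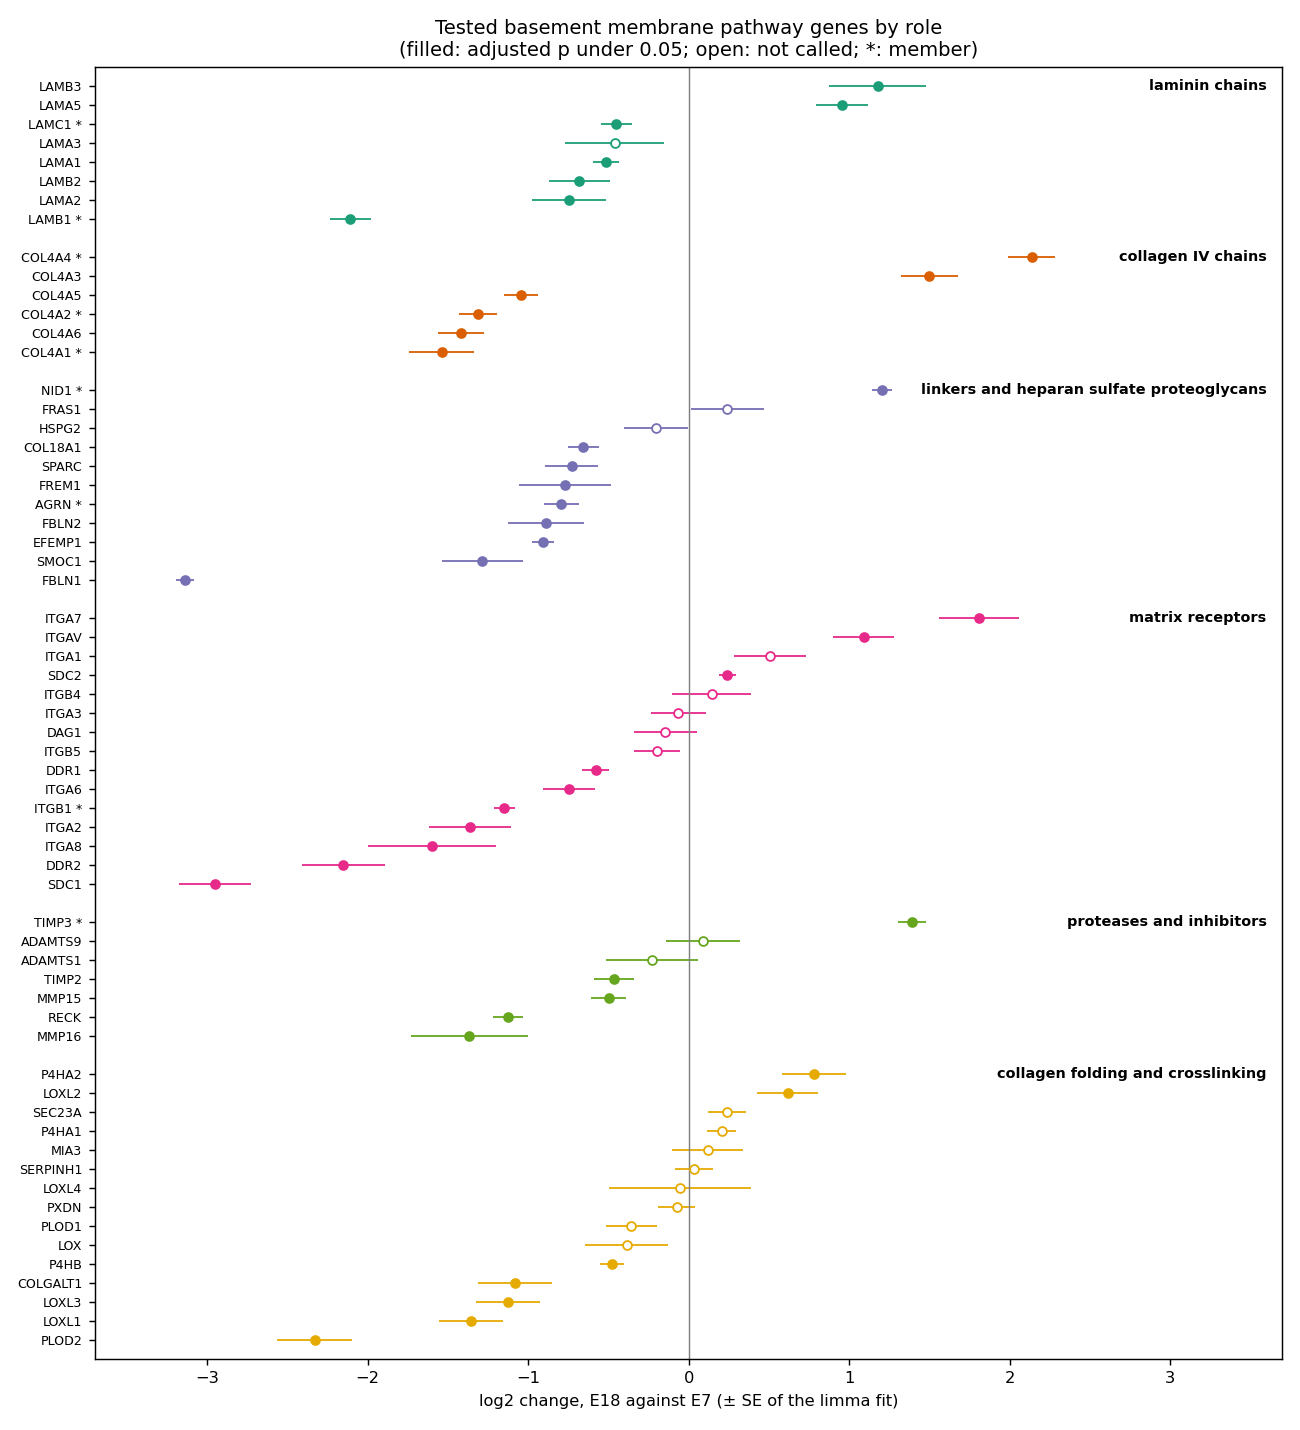
Log2 change from E7 to E18 of the 62 tested pathway genes, grouped by role (points, limma estimates; bars, SE; filled, adjusted p under 0.05; asterisks, the genes this account is about). In total 11 rose and 33 fell; FBLN1 and SDC1 lie lowest, at -3.14 and -2.95, and COL4A4 highest, at 2.14.

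The genes outside the list whose course was most like each member's were found by Pearson correlation over the 14 arrays, given as a description because arrays of 1 age share that age. For COL4A1 and COL4A2 the closest gene was the same, B3GLCT, a glucosyltransferase that acts on thrombospondin repeats (r of 0.984 and 0.989). LAMB1 was closest to CFC1 (0.99), LAMC1 to UBR7 (0.958), COL4A4 to CHMP4B (0.979), NID1 to the glypican GPC5 (0.984) and AGRN to CLTC (0.991). TIMP3 was closest to the tight junction gene CLDN2 (0.981), and ITGB1 to FN1, which encodes the integrin ligand fibronectin (0.991).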

How the data were processed

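Total RNA of 14 RPE preparations (4 at E7, 3 at E10, 3 at E14, 4 at E18) was hybridised to 1-colour Affymetrix chicken arrays after biotin labelling, per the labels' protocols. The authors deposited 1 linear intensity per probe set and array; software and scaling are not given in the sources used here. From the values, each array had the same trimmed mean, 500.1, and a median of 83.3 to 145. The deposited arrays were thus on a common scale by their trimmed means, and the software that set it is unknown. Other deposited files, the instrument settings of 9 arrays, give the hybridization time and fluidics station, used to look for batches.

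After leaving out 96 control probe sets, log2(intensity + 16) was quantile normalised and probe sets whose mean lay in the bottom 40% were dropped (limit 6.20, a signal of 57.5). Ages were compared with limma 3.58.1 (lmFit, eBayes with trend, all 14 arrays in 1 fit) in R 4.3.3, with Benjamini-Hochberg adjustment over 23063 probe sets. Differences between 2 members within an array were compared by two-sided exact permutation tests. Figures were drawn with matplotlib 3.10.9. The fit was tested on simulated data. Of the probe sets, 27178 had 1 gene symbol in the platform annotation and 177 had several, which were not named; the brightest probe set stood for a gene.

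All members were named; from each pathway list, up to 3 non-members that rose and 3 that fell with the smallest adjusted p for E18 against E7, and the gene with the largest called change in an interval; and the 2 genes most correlated with each member, of which the first is given. COL1A2, COL3A1, COL5A1, the array values of POSTN, DCN and LUM, and the other chains' further probe sets were added after their values were seen. The members and lists were chosen with earlier results of these data known. Replicate numbers did not pair the samples (correlation of same-numbered deviations -0.23 to 0.15, median 0.001). Between arrays of unlike number the correlation was -0.28 to 0.41, highest for E7 replicate 4 and E10 replicate 1, both of fluidics station 1. The number of arrays limits precision. Alternatives changed the scaling, added value, filter, variance model, array weights, blocks, probe set and arrays used.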

Additional observations from a re-analysis of the deposited data

Results flagged for a closer look

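The dimmest of the 3 LAMC1 probe sets had 1 array far from the others of its age: E18 replicate 4 was at 6.93 and the other 3 E18 arrays at 7.17 to 7.18. The gap was 0.936 of the group's range. Of 42 groups of 4 arrays examined, this was the 1 that passed Dixon's criterion, which chance passes in about 1 group of 20. The LAMC1 change of 0.00 given for this probe set includes that array.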

How the results depend on the processing

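Calls for LAMB1, COL4A1, COL4A2, COL4A4, NID1, TIMP3 and ITGB1 between E7 and E18 held under every alternative run. The exceptions among the 9 genes were LAMC1 (0.013 with median centring, -0.20 on the deposited scale) and AGRN (-0.42 with median centring). Median centring moved the median change of all genes from -0.05 to 0.06 for E18 against E7 and from 0.03 to 0.22 for E14 against E10; relative to that median LAMC1 changed by -0.04 and AGRN by -0.48, and LAMB1, COL4A1, COL4A2 and ITGB1 by -0.72, -0.97, -0.58 and -0.39 from E10 to E14. It also moved the share of all called genes that were higher from 44.8% to 58.3% (E18 against E7), from 52.1% to 65.1% (E10 against E7) and from 62.5% to 90.9% (E14 against E10). Members called from E10 to E14 were then 0 of 9. Pathway genes called were 9 in place of 15 from E7 to E10. From E10 to E14, 12 pathway genes became 2 with median centring, 20 with array weights, 25 with only the ages compared, 23 within the arrays of shared hybridization time and 21 without the 4 arrays that stood apart, and leaving out 1 array gave 7 to 13. P4HB changed by 0.00045 with median centring. Further lost calls between E7 and E18 were those of LAMB2 (-0.53), MMP15 (-0.31) and LOXL2 (0.59) with median centring, of LAMB3 (0.89), LOXL2 (0.37) and P4HB (-0.21) on the deposited scale, of LAMA2 (-0.59) with array weights, and of LAMA2 (-0.64) and LOXL2 (0.28) within the 5 arrays without an instrument file. Among the arrays of shared hybridization time, where E7 is 1 array whose spread is assumed to be that of the other ages, LAMB3 (0.76), LAMB2 (-0.34) and MMP15 (-0.19) were not called and LAMA2 was at -1.27, LOXL1 at -0.72 and P4HB at -0.28. LAMB2 was at -1.05 within the 5 arrays without an instrument file, COL18A1 at -0.42 on the deposited scale, and MMP16 at -0.85 with 64 added before the logarithm. The causes were not tested.

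COL4A2 minus COL4A1 changed by 0.578 on the deposited scale (exact permutation p = 0.0286) and by -0.271 with the second COL4A2 probe set; NID2 minus NID1 changed by -0.997 with 64 added before the logarithm and by -1.018 with the second NID1 probe set. With the replicate block the members called were 9, 4, 4 and 6 for E18 against E7, E10 against E7, E14 against E10 and E18 against E14, as without it. Leaving out 1 array gave 9 to 9, 4 to 4, 3 to 4 and 4 to 6.

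Signal over background limits NID2, the further COL4A1 probe sets and the second AGRN probe set. Pools of eyes, 3 or 4 per age, cannot show variation between embryos, and for pairs 4 against 4 arrays allow no exact p below 0.0286.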
